A study of Rattus norvegicus with 72 samples.

Results

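Transcripts of oxidative phosphorylation, the system by which mitochondria make ATP, were followed in rat liver after acetaminophen. The genes were chosen by a rule on their names, with earlier results of these data known. They are those whose symbol on the array starts with Nduf, Uqcr, Cox4, Cox5, Cox6, Cox7, Cox8 or Atp5, together with Sdha, Sdhb, Sdhc and Sdhd. Of 20500 probes, 66 carried such a symbol, and after probes of the same symbol were averaged they stood for 62 genes. All 62 passed the filter on missing values and are among 17299 features tested, of which 9606 have a gene symbol. They comprise 17 subunits of complex I, 4 of complex II, 8 of complex III, 14 of complex IV and 14 of complex V. To these come 3 assembly factors of complex I (Ndufaf2, Ndufaf4 and Ndufaf5), the inhibitor of complex V (Atp5if1) and Cox7a2l, which helps complexes III and IV to associate. Cyc1 and the subunits encoded in mitochondrial DNA were not analysed here.

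Complex I oxidises NADH and complex II, which is also the succinate dehydrogenase of the tricarboxylic acid cycle, oxidises succinate. Both hand electrons to ubiquinone, from where they pass through complex III, cytochrome c and complex IV to oxygen, and complex V uses the proton gradient built on the way to make ATP. Hepatocytes hold many mitochondria. In an acetaminophen overdose a reactive metabolite made by cytochrome P450 enzymes uses up glutathione and binds to proteins, those of mitochondria among them, and hepatocytes around the central veins die.

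The 36 rats had received acetaminophen in methyl cellulose by oral gavage at 50, 150, 1500 or 2000 mg/kg, and their livers were taken at 6, 24 or 48 h, with 3 rats in each of the 12 groups. RNA of the left liver lobe of each rat was compared, on 2 two-colour arrays with exchanged dyes, with pooled control RNA, from vehicle-treated rats, that belonged to its own dose and time. The labels spell out mg/kg only for the 150 mg/kg groups at 6 and 24 h, and in these groups they name the controls mock liver (and sham on 1 array of each rat at 24 h) where all others name a pool. The mock names carry a time but no dose. Whether mock and sham were the same RNA is not stated in the labels. The sources used here give no strain, sex or age. Every value below is a log2 ratio of treated rat over pool, averaged over the 2 arrays of a rat, so that 1 is a doubling and 0 is the level of the pool. The sign rests on the red-over-green convention of the Agilent software, which the labels do not state. The pool is taken as 1 sample per dose and time: its own spread is left out of every test, and a difference between pools cannot be told apart from a difference between doses or times. In bulk liver RNA, fewer cells of a type and less RNA per cell cannot be told apart.

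The precision is limited by 3 rats a group and by the arrays. The 2 arrays of a rat, turned to the same direction, correlated above 0 over all probes in 21 of 36 rats. At 48 h after 1500 or 2000 mg/kg the correlation was between 0.48 and 0.72. At 6 h it was between -0.31 and 0.30 after these doses and between -0.42 and 0.05 after 50 or 150 mg/kg. Of the members, 56 had a value in every rat. Ndufa4 stood at exactly 0 on 63 of 72 arrays and its ratios are not read here, while Ndufaf2 stood at 0 on 7 arrays. Rat 3030 at 1500 mg/kg and 6 h stood apart from its group: the median of its members was -0.02 with 25 of 62 above 0, against 0.24 with 52 and 0.25 with 48 in the other 2 rats. The 6 h counts over all members are therefore also given without it, while the counts by complex and most values of single genes include it. Hepatocyte markers were measured as ratios only, so their level, and with it the tissue label, could not be checked.

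Most differences between doses were below 1.5-fold. A gene is said to have risen or fallen, or to be called, when its Benjamini-Hochberg adjusted p over all 17299 features in limma was below 0.05 and the change was at least 1.5-fold. Some counts below use the adjusted p alone and say so. Doses of 1500 and 2000 mg/kg are called the high doses and those of 50 and 150 mg/kg the low doses, and their means were compared at every time. At 6 h, 0 of 62 members were called, where 8.13% of all features were. An unadjusted p below 0.05 was found for 42 members and for 7369 of 17299 features. At 24 h, 2 members rose (Atp5if1 and Ndufaf4) and 0 fell, where 9.93% of features were called. At 48 h, 3 members rose (Atp5if1, Ndufaf5 and Atp5mk) and 0 fell, where 12.4% were. At all 3 times the share of members called was below that of all features.

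**Figure D1:**
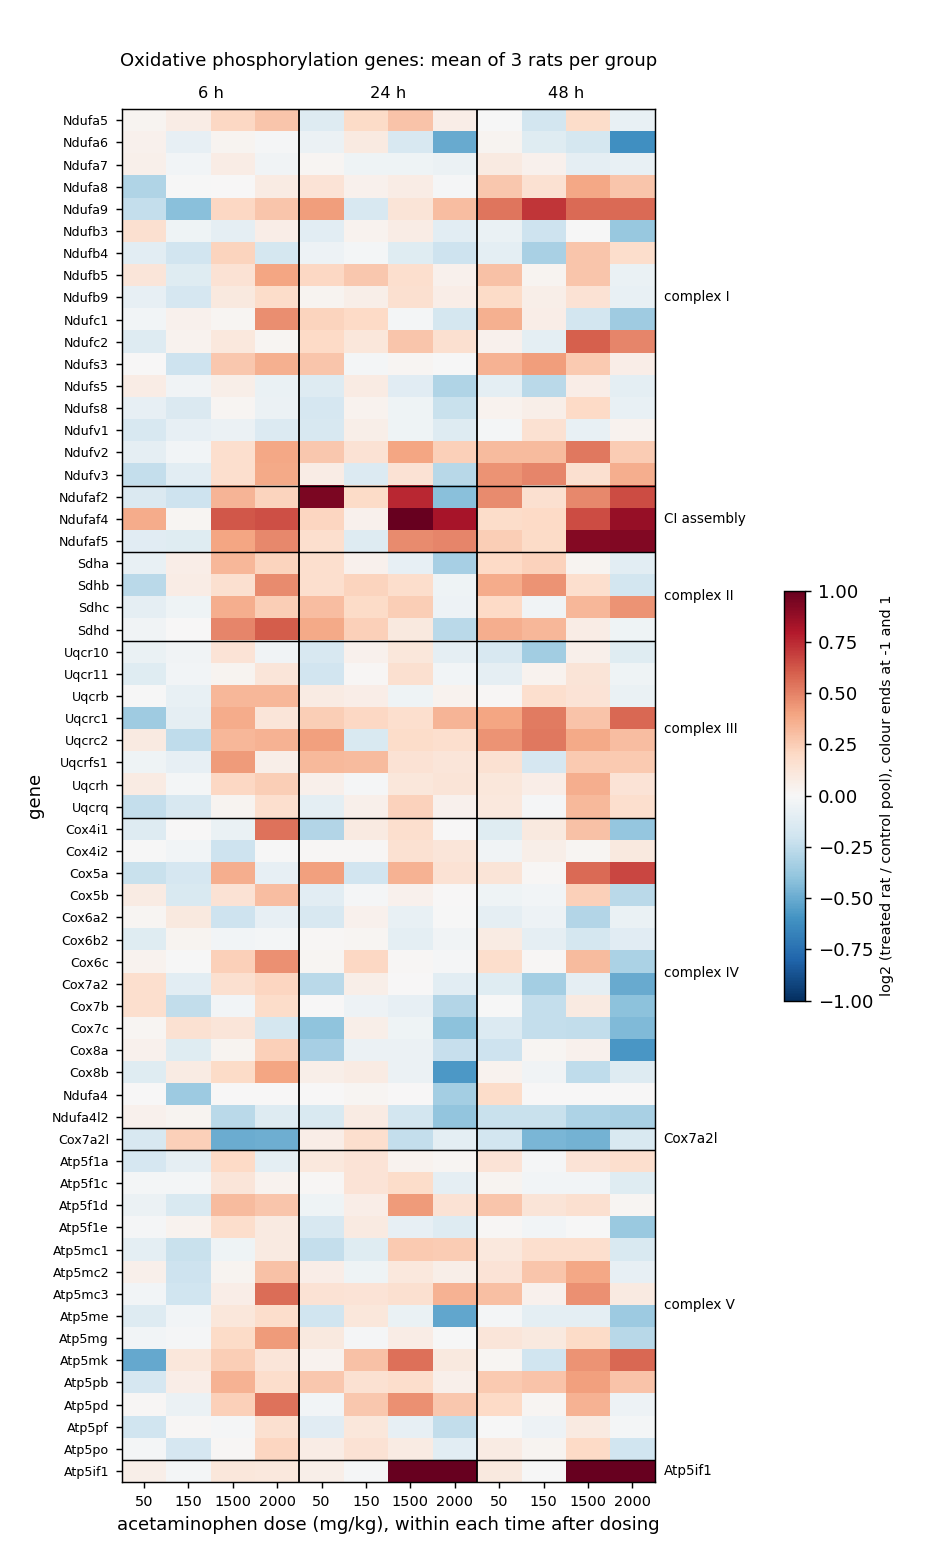
Heat map of the 62 oxidative phosphorylation genes (rows, ordered by complex) in the 12 groups (columns, dose in mg/kg within 6, 24 and 48 h). Colour is the mean log2 ratio of treated rat over control pool of 3 rats, and colours end at -1 and 1. Atp5if1 is dark red only in the 4 groups at 1500 and 2000 mg/kg at 24 and 48 h, while most subunits stay within pale colours.

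With the adjusted p alone, the 6 h comparison looked different from the later times. At 6 h, 36 members were higher and 3 lower after the high doses, against 16.3% and 16.5% of all features in these directions. Of the 62, 55 had a difference above 0, and their median was 0.23, a fold of less than 1.5, where the median of all features was 0.00. At 24 h the adjusted p alone gave 8 members higher and 7 lower (17.3% and 14.5% of features), with a median of -0.04. With arrays scaled to equal spread these were 4 and 14, and with a random block for each group 4 and 2. At 48 h it gave 11 higher and 10 lower (19.2% and 19.9%), with a median of -0.05, and 7 and 3 with the block. Counts under another setting or without 1 rat, here and below, are those of members. The number of all features that pass can change as well and is given only where stated.

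The 6 h shift is visible rat by rat. In the 6 rats of the low doses, the median of the members was between -0.07 and -0.04, and 13 to 23 of the members with a value were above 0. At 2000 mg/kg it was 0.24, 0.18 and 0.14, with 51, 48 and 40 members above 0. All rats of the high doses but rat 3030 therefore lay well above the low-dose rats, and rat 3030 lay between. Without rat 3030, 42 members were higher at adjusted p alone and 3 lower, and 5 members were called. Rat 3030 was picked out by the median of its members, which is the result itself. The numbers of all features that passed without this rat are not given here. When each of the other rats of 6 h was left out in turn, between 28 and 35 were higher and 3 lower. With a random block for each of the 12 groups, which lets rats of a group share their pool, it fell to 11 higher and 0 lower, and the count over all features fell from 5675 to 1644. Hepatocyte markers (10 measured of 14 listed, 2 called higher and 0 lower at 6 h) moved with it: their mean over the markers lay between 0.15 and 0.49 in the high-dose rats and between -0.22 and 0.14 in the low-dose rats. Their part in the result was not tested.

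**Figure D2:**
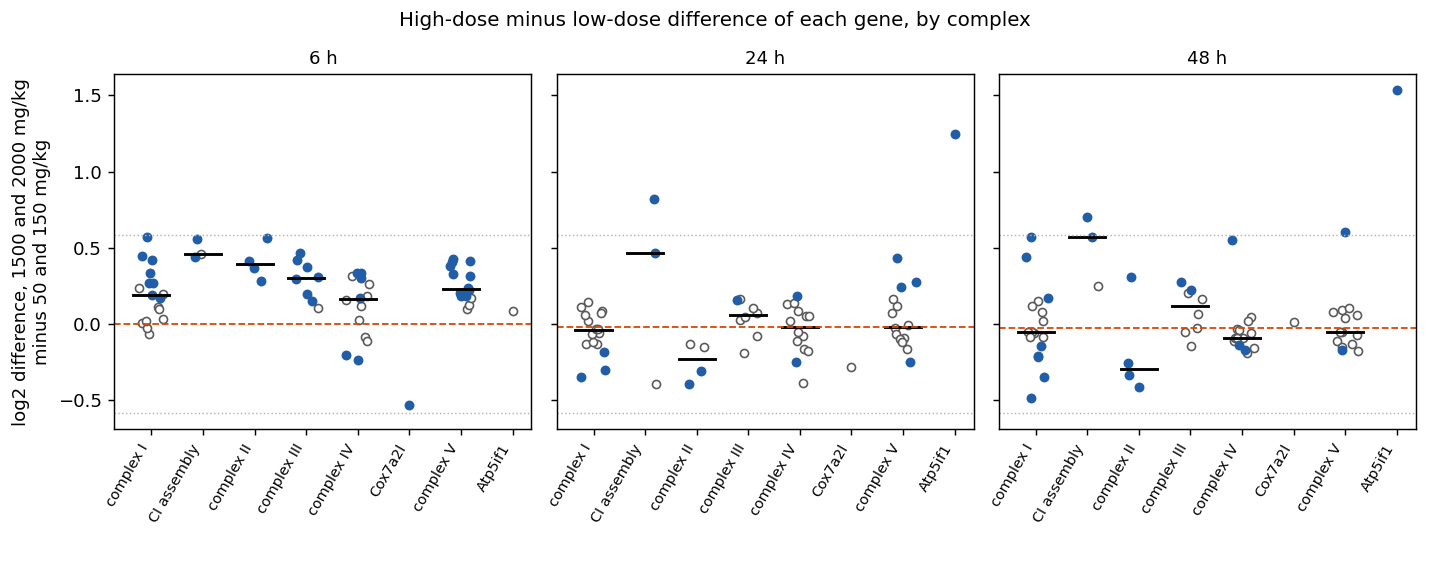
Difference between the high doses (1500 and 2000 mg/kg) and the low doses (50 and 150 mg/kg) in log2 ratio, 1 point per gene, by complex, at 6, 24 and 48 h. Filled points passed the adjusted p alone, black bars are medians of the complex, the dashed line is the median of all features and dotted lines mark 1.5-fold. At 6 h the medians of complexes I to V lie between 0.16 and 0.39, and at 24 and 48 h complex II has the lowest median of complexes I to V (-0.23 and -0.29) and Atp5if1 stands at 1.25 and 1.53.

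Atp5if1 had the greatest high-minus-low difference of all members at 24 and 48 h. It encodes the small protein that binds complex V and keeps it from breaking down ATP when the membrane potential is lost. In the 24 rats that were at 6 h or had received 50 or 150 mg/kg, its values lay between -0.19 and 0.46. At 24 h it stood at 1.22, 1.22 and 0.88 after 1500 mg/kg and at 1.22, 1.59 and 1.51 after 2000 mg/kg. At 48 h it stood at 1.28, 1.84 and 1.52 after 1500 mg/kg and at 1.70, 1.07 and 2.06 after 2000 mg/kg. Every rat of these 4 groups was above every other rat of the series, with a gap from 0.46 to 0.88. The group means were 1.11 ± 0.19 and 1.44 ± 0.20 (SD, n = 3) at 24 h and 1.55 ± 0.28 and 1.61 ± 0.50 at 48 h. The high-minus-low difference was 0.09 ± 0.13 (SE) at 6 h, 1.25 ± 0.13 at 24 h (2.38-fold, limma adjusted p 2.77e-08) and 1.53 ± 0.13 at 48 h (2.89-fold, limma adjusted p 5.99e-10). It differed between times, by 1.16 between 24 and 6 h (limma adjusted p 3.74e-05) and by 1.45 between 48 and 6 h (limma adjusted p 1.21e-06). The 2000 and 1500 mg/kg groups differed by 0.33 ± 0.19 at 24 h and by 0.06 ± 0.19 at 48 h, and neither difference was called.

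The complex V subunits that were measured did not show a difference of this size. Atp5f1a, the alpha subunit of the catalytic head, had a high-minus-low difference of -0.09 ± 0.06 (SE) at 24 h and 0.09 ± 0.06 at 48 h. Atp5f1b, the beta subunit of that head, was not among the members. Over the 14 complex V subunits the differences lay between -0.25 and 0.43 at 24 h and between -0.18 and 0.60 at 48 h, all below that of Atp5if1. The 5 genes of the array whose 12 group means were most like those of Atp5if1 by Pearson's r were Rps24 (0.986), Rps12 (0.986), Rpl32 (0.984), Rps6 (0.984) and Snrpf (0.983). This search was made after the values of Atp5if1 had been seen, and its 12 points share rats and pools. The first 4 of these encode proteins of the cytosolic ribosome, and Snrpf encodes a core protein of the spliceosome.

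**Figure D3:**
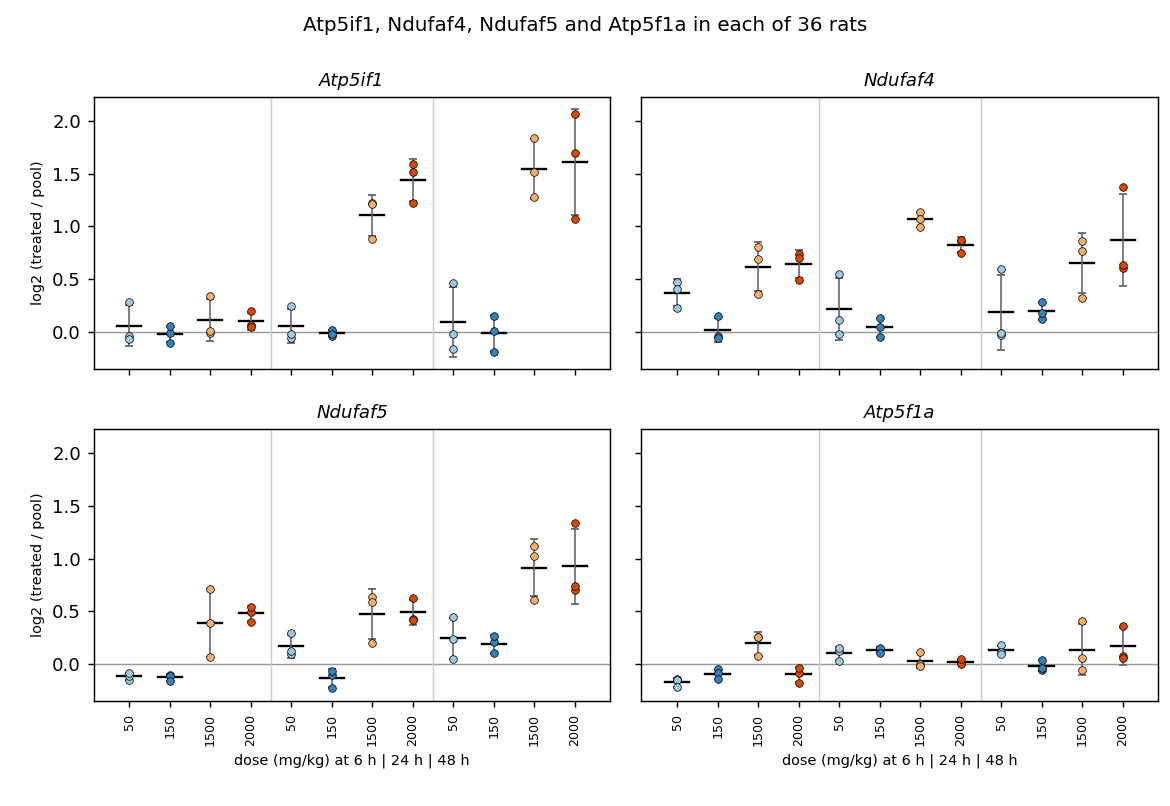
Log2 ratio of treated rat over control pool for Atp5if1, Ndufaf4, Ndufaf5 and Atp5f1a, 1 point per rat, in the 12 groups (dose in mg/kg at 6, 24 and 48 h). Bars are group means and whiskers are SD of 3 rats. Atp5if1 is at 0.88 or above in every rat of the high doses at 24 and 48 h, and Atp5f1a shows no such step.

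The assembly factors of complex I, which help to build the complex and are no part of the finished enzyme, did not behave alike. Ndufaf4 is needed early in assembly. At 6 h it stood at 0.36, 0.81 and 0.70 after 1500 mg/kg and at 0.74, 0.50 and 0.70 after 2000 mg/kg, and the 50 mg/kg rats reached 0.48, so the doses overlapped. At 24 h its 6 high-dose rats lay between 0.75 and 1.14 and the 6 low-dose rats between -0.05 and 0.55, with no overlap. Its high-minus-low difference was 0.44 ± 0.13 (SE) at 6 h, 0.82 ± 0.13 at 24 h (1.76-fold, limma adjusted p 1.04e-05) and 0.57 ± 0.13 at 48 h (1.48-fold, limma adjusted p 0.000665, just below the 1.5-fold limit). Against its own pool Ndufaf4 was called in all 6 groups of the high doses, with means between 0.62 and 1.07, and in 0 of the 6 groups of the low doses. With arrays scaled to equal spread it was under 1.5-fold at 6 h after 1500 and 2000 mg/kg (0.52 and 0.53) and at 48 h after 1500 mg/kg (0.48), and with the group fitted alone its adjusted p at 1500 mg/kg and 6 h was 0.247. It was also under 1.5-fold at 1500 mg/kg at 6 h without rat 3031 or 3032 (0.53 and 0.58) and at 48 h without rat 3006 (0.55).

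Ndufaf5 encodes an enzyme that modifies a core subunit of complex I during assembly. In the low-dose rats at 6 h it lay between -0.16 and -0.08, and in the high-dose rats between 0.07 and 0.71, with no overlap. At 48 h it stood at 1.11, 1.03 and 0.61 after 1500 mg/kg and at 0.71, 0.74 and 1.33 after 2000 mg/kg, above all low-dose rats, which lay between 0.05 and 0.44. Its high-minus-low difference was 0.56 ± 0.11 (SE) at 6 h, 0.46 ± 0.11 at 24 h and 0.70 ± 0.11 at 48 h (1.63-fold, limma adjusted p 9.24e-06; 0.47 and under 1.5-fold with arrays scaled to equal spread). The dose effect was thus above 0 at all 3 times for both genes, and no difference of this effect between times was called for either. Ndufaf2, an assembly factor of the same complex, varied more between rats. At 24 h it stood at 1.02, 0.68 and 1.12 after 50 mg/kg, at 0.31, 0.86 and 1.08 after 1500 mg/kg and at -0.28, -0.37 and -0.60 after 2000 mg/kg, so it followed no order of dose, and its 2000-minus-1500 difference of -1.17 ± 0.34 (SE, limma adjusted p 0.0241) had an adjusted p of 0.280 with arrays scaled to equal spread, 0.0565 with each array fitted with a dye term, and between 0.0572 and 0.109 without rat 3019, 3020, 3106 or 3107. Its calls against the pool were likewise lost without rat 3137 or 3139 (50 mg/kg, 24 h), 3019 or 3020 (1500 mg/kg, 24 h) and 3117 or 3119 (2000 mg/kg, 48 h), with adjusted p between 0.0684 and 0.222.

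Promoter windows are shown for the genes that led these comparisons. Each runs from 250 bases before to 50 bases after the start given with it in the RefSeq-derived table for GRCr8, and 55 of the 62 members had such a window. This start was the outer end of the gene in the gene table for 34 windows and lay inside the gene for 21. Among the windows printed here only that of Sdhb is of the latter kind, with its start 159 bases into the gene. The windows of Atp5if1 (chr5:150026628-150026927, minus strand), Ndufaf4 (chr5:43401545-43401844, plus strand) and Ndufaf5 (chr3:147961362-147961661, plus strand) read, from 5′ to 3′:
Atp5if1: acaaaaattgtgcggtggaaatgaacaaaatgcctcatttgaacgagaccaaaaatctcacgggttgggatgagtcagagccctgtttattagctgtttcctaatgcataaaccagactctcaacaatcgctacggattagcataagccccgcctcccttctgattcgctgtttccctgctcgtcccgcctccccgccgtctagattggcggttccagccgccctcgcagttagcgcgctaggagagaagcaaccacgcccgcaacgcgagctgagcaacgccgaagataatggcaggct
Ndufaf4: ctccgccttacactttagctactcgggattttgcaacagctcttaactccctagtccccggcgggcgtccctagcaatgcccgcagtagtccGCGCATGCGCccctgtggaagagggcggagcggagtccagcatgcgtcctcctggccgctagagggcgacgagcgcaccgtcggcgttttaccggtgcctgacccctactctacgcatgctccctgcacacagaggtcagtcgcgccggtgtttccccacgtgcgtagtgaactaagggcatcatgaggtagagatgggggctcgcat
Ndufaf5: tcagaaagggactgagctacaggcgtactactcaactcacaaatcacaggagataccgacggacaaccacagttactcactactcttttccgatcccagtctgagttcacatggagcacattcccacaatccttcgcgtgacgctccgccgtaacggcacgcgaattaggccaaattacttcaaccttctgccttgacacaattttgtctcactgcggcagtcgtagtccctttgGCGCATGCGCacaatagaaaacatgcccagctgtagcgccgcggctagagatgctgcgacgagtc
Capitals mark matches, on either strand, to a motif that was searched. The window of Ndufaf4 and that of Ndufaf5 each held 1 match to the palindromic motif of nuclear respiratory factor 1 (NRF1) at positions -158 and -15 from the start given with each window. That of Atp5if1 held no match to any of the 6 motifs searched, which says only that these letters are absent from this window.

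Over the members with a window, 13 of 55 (23.6%) held the NRF1 motif, against 4.25% of all 33469 windows and 8.54% of the 8361 windows of genes on the array. The ETS motif CCGGAAG was found in 16 (29.1%), against 8.75% and 14.5%. The YY1 motif was found in 4 (7.27%), against 1.06% and 2.22%, and the cyclic AMP response element TGACGTCA in 2 (3.64%), against 1.83% and 2.7%. The antioxidant response core was found in 0, against 3% and 2.73%, and the amino acid response motif TGATGNAAT in 1 (1.82%), against 1.09% and 0.538%. Both strands were searched and matches could overlap. A match is a description of these letters, not a binding site.

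Complex II changed its order of doses with time. Its subunits are Sdha, the flavoprotein that oxidises succinate, Sdhb, the iron-sulfur protein, and the membrane anchors Sdhc and Sdhd. At 6 h all 4 were higher after the high doses at adjusted p alone (16.3% of features), with differences of 0.28 to 0.56. At 24 h all 4 differences were below 0, between -0.40 and -0.13, with Sdha and Sdhd lower at adjusted p alone (14.5% of features). At 48 h Sdha, Sdhb and Sdhd were lower at adjusted p alone (-0.26, -0.42 and -0.33, against 19.9% of features) and Sdhc was higher (0.31, against 19.2%). None of these differences reached 1.5-fold.

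Sdhd is given rat by rat. At 6 h it lay between -0.08 and 0.04 in the 6 low-dose rats. It stood at 0.14, 0.68 and 0.66 after 1500 mg/kg and at 0.64, 0.54 and 0.65 after 2000 mg/kg at that time. All high-dose rats were above all low-dose rats, and rat 3030 was the lowest of them. At 24 h the low-dose rats lay between 0.18 and 0.54, the 1500 mg/kg rats at 0.09, 0.06 and 0.15 and the 2000 mg/kg rats at -0.15, -0.50 and -0.16. At 48 h the low-dose rats lay between 0.22 and 0.51 and the high-dose rats between -0.16 and 0.18. At both later times every high-dose rat was below every low-dose rat, and the low-dose rats were themselves above their pools.

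The difference of the dose effect between times was tested directly for these genes. For Sdhd the high-minus-low difference was 0.56 ± 0.08 (SE) at 6 h, -0.40 ± 0.08 at 24 h and -0.33 ± 0.08 at 48 h. It was lower by 0.96 on the log2 scale at 24 h than at 6 h (1.94-fold, limma adjusted p 9.68e-07) and by 0.90 at 48 h than at 6 h (1.86-fold, limma adjusted p 1.49e-06), and both were called. Sdha was called for 24 against 6 h (-0.59 ± 0.07, limma adjusted p 8.16e-07) and Sdhb for 48 against 6 h (-0.83 ± 0.11, limma adjusted p 1.04e-06). All 4 subunits had a lower dose effect at 24 h than at 6 h at adjusted p alone, against 12.5% of all features, while for Sdhc the difference between 48 and 6 h was -0.06 ± 0.11. For Sdha the change was just over 1.5-fold, and it was under it in 10 of the alternatives tried (-0.58 to -0.52), 8 of which left out 1 rat. The low doses enter these contrasts with values of their own: Sdhd in the 50 mg/kg groups had means of -0.03 ± 0.05 (SD, n = 3) at 6 h, 0.38 ± 0.14 at 24 h and 0.37 ± 0.14 at 48 h.

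**Figure D4:**
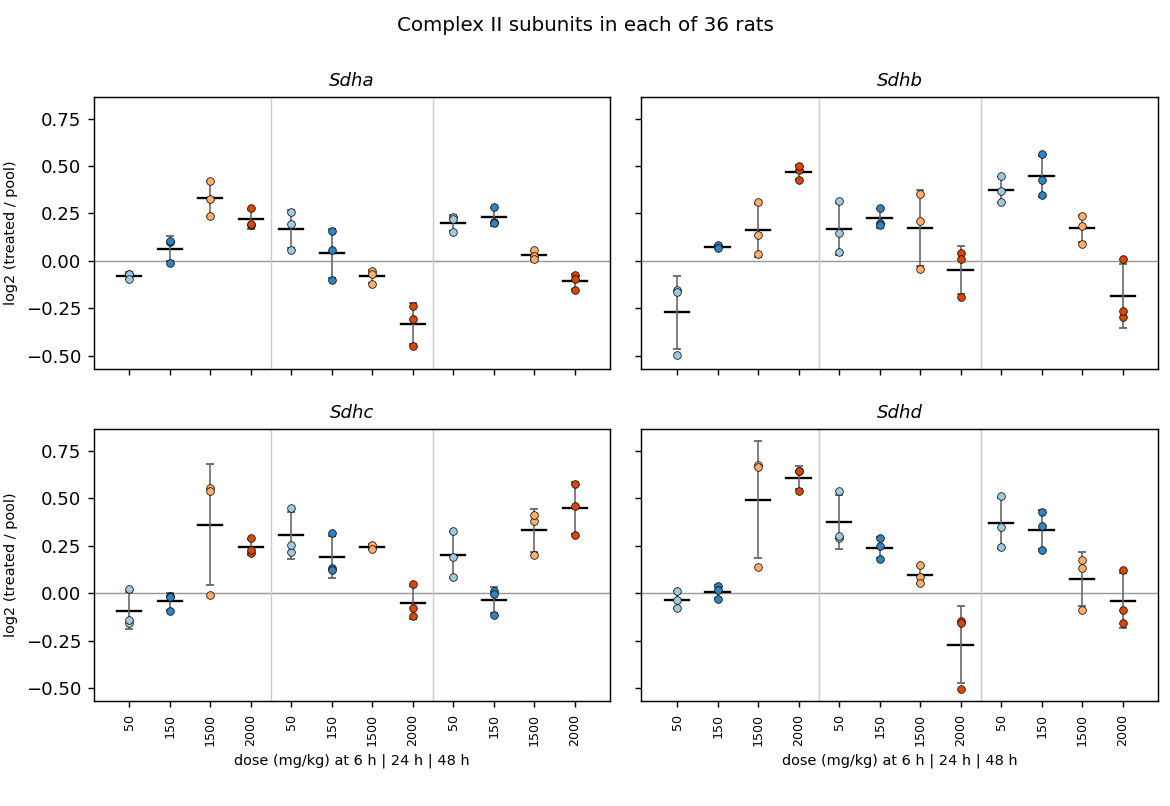
Log2 ratio of treated rat over control pool for the 4 subunits of complex II, 1 point per rat, in the 12 groups (dose in mg/kg at 6, 24 and 48 h). Bars are group means and whiskers are SD of 3 rats. For Sdhd the high doses lie above the low doses at 6 h and below them at 24 and 48 h, and Sdhc is higher after the high doses at 48 h.

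Whether motifs bear on the ratios was not tested. The windows of the 4 complex II genes differ in the motifs they hold. They lie at chr1:30764303-30764602 (Sdha, plus strand), chr5:158547684-158547983 (Sdhb, plus strand), chr13:86097976-86098275 (Sdhc, minus strand) and chr8:59850592-59850891 (Sdhd, minus strand) of GRCr8:
Sdha: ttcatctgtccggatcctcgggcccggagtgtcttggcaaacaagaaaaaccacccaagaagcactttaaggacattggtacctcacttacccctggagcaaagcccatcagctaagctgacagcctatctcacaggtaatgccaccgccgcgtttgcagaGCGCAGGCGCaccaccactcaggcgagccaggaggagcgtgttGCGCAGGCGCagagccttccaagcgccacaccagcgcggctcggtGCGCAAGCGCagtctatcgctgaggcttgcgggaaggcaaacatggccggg
Sdhb: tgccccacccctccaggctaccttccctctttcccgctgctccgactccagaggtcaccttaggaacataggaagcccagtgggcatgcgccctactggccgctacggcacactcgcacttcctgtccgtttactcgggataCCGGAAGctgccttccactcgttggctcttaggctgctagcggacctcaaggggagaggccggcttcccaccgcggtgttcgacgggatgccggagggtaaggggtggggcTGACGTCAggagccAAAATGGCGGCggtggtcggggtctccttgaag
Sdhc: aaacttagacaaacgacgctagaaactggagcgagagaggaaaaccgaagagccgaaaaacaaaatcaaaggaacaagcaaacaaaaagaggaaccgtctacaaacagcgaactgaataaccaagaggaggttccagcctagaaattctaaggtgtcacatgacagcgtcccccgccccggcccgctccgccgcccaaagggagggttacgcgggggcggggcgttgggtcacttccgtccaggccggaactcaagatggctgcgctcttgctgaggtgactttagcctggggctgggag
Sdhd: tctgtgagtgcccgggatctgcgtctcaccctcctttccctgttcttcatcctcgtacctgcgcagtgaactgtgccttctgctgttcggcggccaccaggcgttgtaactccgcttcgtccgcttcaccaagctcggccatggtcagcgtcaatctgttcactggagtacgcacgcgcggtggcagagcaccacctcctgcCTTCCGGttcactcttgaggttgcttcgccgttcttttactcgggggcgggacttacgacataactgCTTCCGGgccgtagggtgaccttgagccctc
Sdha held 3 matches to the NRF1 motif, at positions -89, -46 and -1. Sdhb held 1 match each to CCGGAAG, TGACGTCA and the YY1 motif, Sdhd held 2 matches to CCGGAAG, and Sdhc held no match to any motif searched.

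Among the 17 subunits of complex I, 8 were higher and 0 lower after the high doses at 6 h at adjusted p alone. Of all features 16.3% were higher and 16.5% lower. The median difference of the 17 was 0.19. Ndufa9, an accessory subunit beside the ubiquinone site, had the highest difference (0.57 ± 0.11, SE, limma adjusted p 0.000216). At 6 h it stood at -0.24, -0.28 and -0.18 after 50 mg/kg, -0.33, -0.41 and -0.52 after 150 mg/kg, -0.21, 0.24 and 0.59 after 1500 mg/kg and 0.15, 0.43 and 0.24 after 2000 mg/kg. The low-dose rats were below 0 and all high-dose rats but rat 3030 were above 0. At 48 h Ndufa9 was above its pool in all 12 rats, with group means of 0.53, 0.71, 0.57 and 0.56 from the lowest to the highest dose, and it was called at 150 mg/kg, where 1.48% of features were called. Next in size at 6 h came Ndufv3 (0.44) and Ndufs3 (0.42), the latter a core subunit on the path of electrons to ubiquinone. The core subunits Ndufv1, which binds NADH, and Ndufs8 had differences of 0.02 and 0.10 and did not pass.

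At the later times the complex I subunits went different ways. At 48 h, 3 were higher at adjusted p alone (Ndufc2 0.57, Ndufb4 0.44 and Ndufs5 0.17) and 4 lower (Ndufc1 -0.48, Ndufa6 -0.35, Ndufv3 -0.21 and Ndufa7 -0.15). Ndufc1 and Ndufc2 are small accessory subunits of the membrane arm. Ndufc2 stood at 0.61, 0.75 and 0.44 after 1500 mg/kg and 0.41, 0.38 and 0.67 after 2000 mg/kg, and in the low-dose rats between -0.10 and 0.12. Ndufc1 stood at -0.08, -0.22 and -0.26 after 1500 mg/kg and -0.26, -0.47 and -0.34 after 2000 mg/kg, and in the low-dose rats between -0.02 and 0.53. Neither gene's doses overlapped, and the directions were opposite. Against the pool, Ndufc2 rose at 1500 mg/kg (0.60 ± 0.16, SD, n = 3) and both of its probes gave 0.60 (0.52 without rat 3007, under 1.5-fold), while Ndufa6 fell at 2000 mg/kg (-0.61 ± 0.07, limma adjusted p 6.05e-07). With arrays scaled to equal spread both were under 1.5-fold, at 0.45 and -0.50. The dose effect was lower at 48 h than at 6 h by a called amount for Ndufc1 (-0.72), Ndufv3 (-0.65), Ndufs3 (-0.64) and Ndufa9 (-0.63). Without rat 3031 that of Ndufs3 (-0.57), and without rat 3032 or 3008 that of Ndufa9 (-0.53 and -0.57), was under 1.5-fold.

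Complex III moved largely in 1 direction at 6 h. All 8 subunits had a difference above 0 and 7 were higher at adjusted p alone (16.3% of features), with a median of 0.30. The greatest were Uqcrc1 and Uqcrc2, the large core proteins of the matrix side, at 0.47 ± 0.07 (SE, limma adjusted p 1.83e-05) and 0.42 ± 0.08 (limma adjusted p 0.000434). The value of Uqcrc2 is the mean of 2 probes that differed at 6 h. In order of dose, 1 probe had group means of -0.05, -0.38, 0.43 and 0.46. The other had 0.23, -0.13, 0.24 and 0.23, so by this probe 50 mg/kg was level with the high doses. Uqcrfs1, the Rieske iron-sulfur protein that passes electrons to cytochrome c1, was at 0.30 ± 0.09. Uqcrc1 stood between -0.43 and -0.05 in the low-dose rats, at 0.41, 0.34 and 0.36 after 1500 mg/kg and at 0.12, 0.15 and 0.09 after 2000 mg/kg, so the doses did not overlap and the lower of the high doses gave the higher values. Rat 3030 was the highest rat for this gene. At 24 h 1 subunit (Uqcr11, 0.16) and at 48 h 2 (Uqcrfs1, 0.27, and Uqcr10, 0.22) were higher at adjusted p alone, and 0 were lower. Of all features 17.3% and 19.2% were higher at these times, and 14.5% and 19.9% lower.

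Complex IV, the cytochrome c oxidase, had members on both sides of 0. At 6 h, 4 of 14 members were higher at adjusted p alone (Cox6c 0.34, Cox5a 0.33, Cox4i1 0.30 and Cox8a 0.17) and 2 lower (Ndufa4l2 -0.24 and Cox6a2 -0.20). Of all features 16.3% were higher and 16.5% lower. Several subunits exist as tissue isoforms. The 2 that were lower are not the usual liver forms: Cox6a2 is the heart and muscle form of its subunit, and Ndufa4l2 is a hypoxia-inducible relative of Ndufa4. Cox8b, a heart and muscle form, and Cox4i2, a form known from lung, did not pass at 6 h (0.31 and -0.09). For Cox8b the rats of a group lay far apart, for example 0.58, -0.16 and 0.77 at 2000 mg/kg and 6 h. It fell from 6 to 24 h within the high doses (-0.61 ± 0.16, SE, limma adjusted p 0.00335), but the change was under 1.5-fold when arrays were scaled to equal spread (-0.40) or without rat 3031, 3093, 3095, 3018 or 3107 (-0.58 to -0.52), and the adjusted p was 0.0723 with each array fitted with a dye term. Cox5a, a subunit on the matrix side, rose at 48 h after 2000 mg/kg (0.67 ± 0.25, SD, n = 3) and had a high-minus-low difference of 0.55 with no overlap of doses. Its mean at 2000 mg/kg was under 1.5-fold without rat 3119 (0.52) and with arrays scaled to equal spread (0.54).

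Cox7a2l was the only member outside the complexes that was lower at 6 h. It stood at 0.01, -0.22 and -1.29 after 1500 mg/kg and at -0.60, -0.42 and -0.45 after 2000 mg/kg. The low-dose rats with a value lay between -0.23 and 0.31, and rats 3030 and 3031 lay among them. Its high-minus-low difference was -0.53 ± 0.16 (SE, limma adjusted p 0.0115), below 1.5-fold, and 1 low-dose rat was missing.

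In complex V all 14 subunits had a 6 h difference above 0 and 11 were higher at adjusted p alone (16.3% of features), with a median of 0.23. The largest were Atp5mc3, 1 of the genes for the rotor ring (0.42 ± 0.08, SE), Atp5pd of the stalk (0.41 ± 0.08) and Atp5f1d of the head's central stalk (0.40 ± 0.07). At 24 h, 3 were higher at adjusted p alone (Atp5mc1 0.43, Atp5f1d 0.27 and Atp5pd 0.24) and Atp5me was lower (-0.25), against 17.3% and 14.5% of features. At 48 h Atp5mk, a small subunit of the membrane part, rose by 0.60 ± 0.11 (1.52-fold, limma adjusted p 0.000112) and Atp5me was lower at adjusted p alone (-0.18). Atp5mk stood at 0.55, 0.60 and 0.20 after 1500 mg/kg and at 0.53, 0.49 and 0.71 after 2000 mg/kg at 48 h, and the low-dose rats lay between -0.26 and 0.30, so 1 rat of the high doses overlapped them. The difference was under 1.5-fold against the 50 mg/kg group alone (0.49), with arrays scaled to equal spread (0.50) and without rat 3149, 3150, 3006, 3007 or 3119 (0.55 to 0.58).

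Complete separation of doses was rare and near the background. At 6 h, 6 of 59 members with all values had every high-dose rat above every low-dose rat (Atp5me, Atp5pb, Ndufaf5, Sdha, Sdhd and Uqcrc1), where 6.58% of features did, and 0 had them below, where 3.86% did. At 24 h, 3 of 59 were above (Atp5if1, Atp5mc1 and Ndufaf4; 6.32% of features) and 2 below (Ndufc1 and Sdhd; 4.41%). At 48 h, 5 of 62 were above (Atp5if1, Cox5a, Ndufaf5, Ndufb4 and Ndufc2; 9.75%) and 4 below (Ndufc1, Sdha, Sdhb and Sdhd; 8.24%).

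The 2 high doses were compared at each time. At 24 h, 52 of 62 members were lower at 2000 than at 1500 mg/kg and 10 higher, with a median difference of -0.16 where all features had 0.01. At adjusted p alone 6 were lower and 0 higher, against 5.37% and 6.95% of features, and Ndufaf2 was the only one called, where 5.19% were. With arrays scaled to equal spread 1 was lower (200 features passed in place of 2131), and without 1 rat between 2 (rat 3020 or 3106) and 8 (rat 3105) were, with 3 without rat 3019 and 4 without rat 3018 or 3107. At 48 h, 44 of 62 were lower, with a median of -0.15 where all features had 0.01. At adjusted p alone 19 were lower and 1 higher, against 7.04% and 7.81% of features. These 19 comprised 8 of 14 subunits of complex V, 6 of 14 of complex IV, 4 of 17 of complex I, 1 of 4 of complex II and 0 of 8 of complex III.

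Cox4i1, Cox6c and Cox8a, all structural subunits of complex IV encoded in the nucleus, were called lower at 2000 than at 1500 mg/kg at 48 h, where 3.32% of features were. Cox4i1 stood at 0.30, 0.20 and 0.37 after 1500 mg/kg and at -0.36, -0.37 and -0.43 after 2000 mg/kg, a difference of -0.68 ± 0.10 (SE, limma adjusted p 9.39e-05). Cox6c stood at 0.28, 0.43 and 0.23 and at -0.47, -0.33 and -0.16, a difference of -0.63 ± 0.08. Cox8a stood at -0.10, 0.27 and -0.04 and at -0.69, -0.63 and -0.43, a difference of -0.63 ± 0.08. In none of the 3 genes did the groups overlap. Without rat 3007 or rat 3117 the differences of Cox6c and Cox8a were under 1.5-fold (-0.57 to -0.51), while that of Cox4i1 stayed called without any of the 6 rats. At 6 h Cox4i1 had the opposite order, with -0.14, 0.14 and -0.21 after 1500 mg/kg and 0.51, 0.69 and 0.43 after 2000 mg/kg, and this difference of 0.61 ± 0.10 (limma adjusted p 0.00186) was the only one called between the high doses at 6 h, where 0.613% of features were. It was under 1.5-fold without rat 3030, 3032 or 3094 (0.54 to 0.58) and with arrays scaled to equal spread (0.56).

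The gap between the high doses depended on the scale of the arrays and on single rats. With all arrays scaled to equal spread, 6 members were lower and 0 higher at 48 h at adjusted p alone and 0 were called. Leaving out 1 of the 6 rats gave between 6 and 21 lower, the fewest without rat 3007 at 1500 mg/kg, and without rat 3117 or rat 3118 it was 9. Muscle markers, which were measured because some isoforms belong to muscle, lay lower at 2000 mg/kg at 48 h (mean over 6 markers from -0.50 to -0.26) than at 1500 mg/kg (-0.04 to 0.16). Their part in the result was not tested, and the 2 doses have separate pools.

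**Figure D5:**
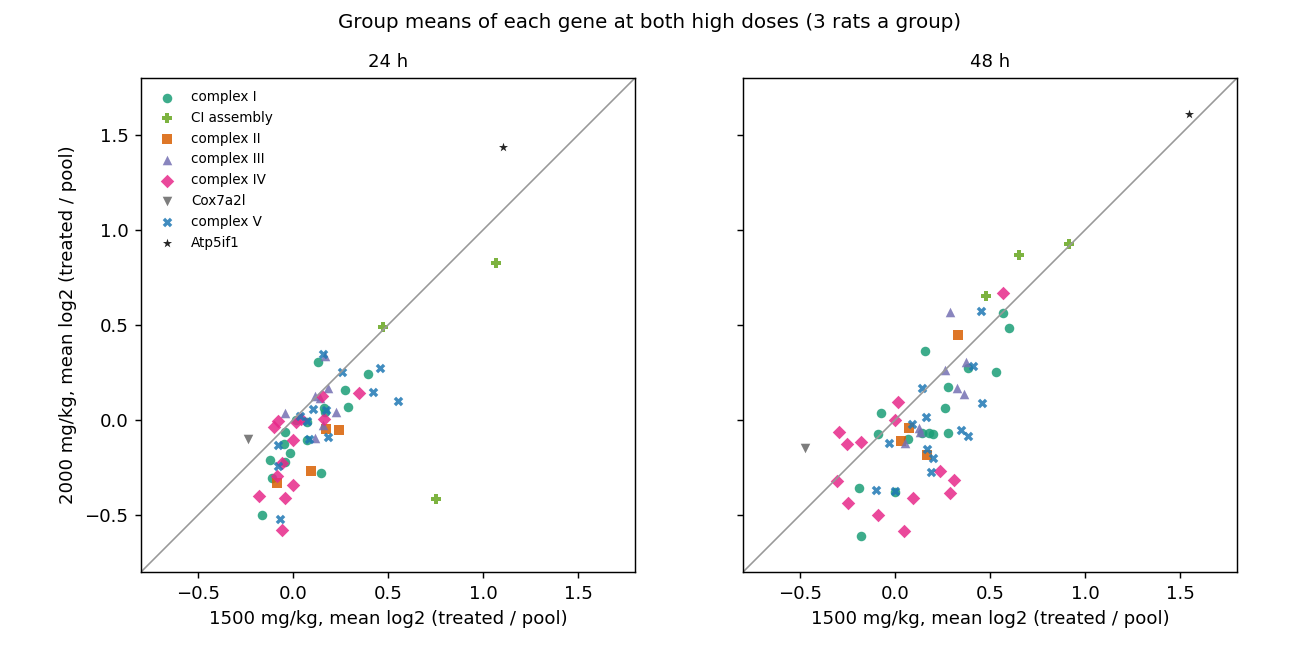
Mean log2 ratio of treated rat over control pool of each gene after 2000 mg/kg (vertical) against 1500 mg/kg (horizontal), at 24 and 48 h, 3 rats a group, with markers by complex. The line marks equal values. At 48 h, 14 of 17 points of complex I, 3 of 4 of complex II, 7 of 8 of complex III, 8 of 14 of complex IV and 12 of 14 of complex V lie below the line. At 48 h Atp5if1 and the assembly factors lie on or above it, while at 24 h 2 of the 3 assembly factors lie below it.

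Between times within the high doses, 3 members were called from 6 to 24 h, where 10.1% of features were: Atp5if1 rose by 1.16, and Sdhd and Cox8b fell by 0.64 and 0.61 on the log2 scale (Sdhd by 0.58 without rat 3106 and by 0.50 with arrays scaled to equal spread, both under 1.5-fold). At adjusted p alone 3 were higher and 20 lower, against 15.9% and 15.8%. Among the 20 were all 4 complex II genes, Cox6c (-0.35), Ndufv3 (-0.34) and Atp5me (-0.44). From 24 to 48 h, 0 were called, where 9.08% of features were, and at adjusted p alone 13 were higher and 5 lower (15.2% and 17.9%). An unadjusted p below 0.05 was found there for 22 members and for 7531 of 17299 features. In the tests of the dose effect between times, 4 members were called for 24 against 6 h (13.1% of features) and 7 for 48 against 6 h (14%). For 48 against 24 h 0 were called (6.46%), and 15 members and 4796 of 17299 features had an unadjusted p below 0.05. At adjusted p alone the dose effect was lower at 24 than at 6 h for 25 members and higher for 2 (12.5% and 12.6% of features), and lower at 48 than at 6 h for 23 and higher for 3 (13.6% and 13.5%).

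Each group against its own pool gave few calls. At 6 h, 0 members were called at 50 mg/kg (1.42% of features) and 0 at 150 mg/kg (0.0347%). An unadjusted p below 0.05 was found for 19 and 13 members, and for 2449 and 1374 of 17299 features. At 1500 mg/kg Ndufaf4 rose (7.03%), and at 2000 mg/kg Ndufaf4 and Sdhd did (7.96%; Sdhd at 0.61, or 0.51 and under 1.5-fold with arrays scaled to equal spread). At 24 h, Ndufaf2 was called at 50 mg/kg (3.55%), 0 at 150 mg/kg (0.145%, although 16 passed an unadjusted p of 0.05), 3 at 1500 mg/kg (Atp5if1, Ndufaf2 and Ndufaf4; 9.89%) and 2 at 2000 mg/kg (Atp5if1 and Ndufaf4; 14.8%). At 48 h, 0 were called at 50 mg/kg (3.95%), where 25 members and 5613 of 17299 features had an unadjusted p below 0.05. Ndufa9 was called at 150 mg/kg. At 1500 mg/kg 4 were called (Atp5if1, Ndufaf4, Ndufaf5 and Ndufc2, where 18.7% of features were). At 2000 mg/kg 6 were called, where 22% of features were: Atp5if1, Cox5a, Ndufaf2, Ndufaf4 and Ndufaf5 higher and Ndufa6 lower.

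The count at the lowest dose rested on the spread shared with the other groups and on single rats. At 50 mg/kg 13 members were higher and 10 lower at 24 h (9.5% and 9.05% of features) and 18 higher and 3 lower at 48 h (10.3% and 8.23%) at adjusted p alone. With the group fitted alone it was 0 and 0 at both times, where 0 of all features passed. At 24 h it was 1 and 2 without rat 3137, 8 and 5 without rat 3138 and 10 and 1 without rat 3139. At 48 h it was 9 and 0 without rat 3149, 10 and 2 without rat 3150 and 8 and 0 without rat 3151. At 24 h Cox4i1, Cox7a2, Cox7c and Cox8a were among the lower ones (-0.29, -0.27, -0.40 and -0.33), and Uqcrc2 and Cox5a (0.41 each) among the higher ones. Cox8a stood at -0.29, -0.35 and -0.37 in these 3 rats, and at 0.00, -0.07 and -0.10 after 150 mg/kg at the same time. The labels name the controls of the 2 doses differently, so dose and controls cannot be told apart.

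Genes around the complexes were read against the shares of all features called at 6, 24 and 48 h, 8.13%, 9.93% and 12.4%. Of 44 measured mitochondrial ribosomal proteins, which translate the subunits encoded in mitochondrial DNA, 1 rose and 0 fell at 6 h after the high doses, 9 rose and 0 fell at 24 h, and 10 rose and 0 fell at 48 h. The count at 6 h was below the share of all features, and those at 24 and 48 h were above it. Their median difference was 0.03, 0.25 and 0.35, and Mrps18b (1.06), Mrpl12 (1.00) and Mrpl47 (0.95) led at 24 h. Of 22 carriers, channels and import proteins, 3, 8 and 4 rose at the 3 times and 0 fell. Hspd1 and Hspe1, the chaperonin and its lid, rose by 1.62 and 1.42 at 24 h, and Slc25a4, an ATP/ADP exchanger, by 1.66 at 48 h. Of 26 further assembly factors, 2, 2 and 3 rose and 0 fell, among them Sdhaf1, which inserts iron-sulfur clusters into complex II (0.80 at 6 h), Bcs1l of complex III (1.12 at 24 h) and Cox17, a copper chaperone of complex IV (0.71 at 48 h).

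Of 15 regulators of mitochondrial biogenesis, 2 rose at each time and 0 fell. Pprc1, a coactivator of nuclear respiratory factors, rose by 0.86 at 6 h, 1.75 at 24 h and 0.82 at 48 h, and Tfam, which packs and transcribes mitochondrial DNA, by 0.63 at 24 h. Polg2 rose at 6 h (1.73) and Mterf2 at 48 h (0.81). Of 13 genes of the tricarboxylic acid cycle, Dlat rose (0.61) and Ogdh fell (-0.69) at 6 h, Pc fell at 24 h (-0.85), and Pc (-1.08) and Suclg2 (-0.80) fell at 48 h. Of 15 genes of cytochrome c and ubiquinone, Coq7 rose at 6 h (0.71), Dhodh (0.86) and Coq5 (0.68) rose and Coq8a fell (-0.93) at 24 h, and Coq8a fell at 48 h (-0.74). Of 13 subunits encoded in mitochondrial DNA, 0 were measured. The counts of the assembly, biogenesis, tricarboxylic acid cycle and ubiquinone lists are each 3 or fewer at a time, and no list was tested as a set.

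Cell type markers changed strongly at 48 h beside these results. Of 10 hepatocyte markers, 1 rose and 7 fell after the high doses, with a median difference of -1.25, and their mean lay between -1.53 and -1.20 in the high-dose rats and between -0.26 and 0.18 in the low-dose rats. Of 9 markers of cycling cells 8 rose (median 1.57), of 13 of macrophages and monocytes 4 rose, of 4 of neutrophils 3 rose, of 8 of stellate cells and fibroblasts 3 rose, and of 5 of cholangiocytes 1 rose, with 0 falling in each. Of 7 endothelial and 6 muscle markers 0 were called. At 24 h 1 hepatocyte marker rose and 3 fell, and their mean lay between -0.97 and -0.35 in the high-dose rats and between -0.25 and 0.07 in the low-dose rats. The part of these cells in the ratios of the members was not tested.

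By Pearson's r over the 12 group means, the genes most like the median of the members, among 9544 searched, were Cir1 (0.925), Ythdf3 (0.867), Tpcn2 (0.852), Cgm4 (0.852) and Cnpy3 (0.845). These are descriptions of 12 points that share rats and pools.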

How the data were processed

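Total RNA was compared on 72 two-colour Agilent Rat Oligo Microarrays (G4130A), 2 per rat with exchanged dyes. The deposited values are log10 ratios of both channels, per the labels and the values themselves, from Agilent Feature Extraction software (G2566AA). How background and dyes were corrected is unknown here. These ratios were turned by the dyes in the labels, converted to log2, averaged over the 2 arrays of a rat and then over probes of the same symbol. Of the probes, 12750 had 1 symbol, 5 several and 7745 none, and those without a single symbol were kept as features of their own. A feature needed a value in at least 2 rats of each group. Values ended at 2 on the log10 scale, where 23 values of all probes and 0 of the members lay. Missing were 0.210% of all values and 0.126% of those of members, and 1.47% of the members' values were exactly 0. Medians of the arrays lay between -0.0191 and 0.0190 on the log10 scale. No 2 arrays held identical values, and the lowest correlation between same-dye arrays of a group was 0.0937.

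One limma model (3.58.1, in R 4.3.3) with the 12 groups was fitted to all 36 rats and all features, with 24 residual degrees of freedom, Benjamini-Hochberg adjustment over 17299 features, and calls at an adjusted p below 0.05 and at least 1.5-fold. On simulated data, the script recovered 97% of features changed by 1 and 87% of those changed by 0.6 (log2) for high minus low doses at 48 h, over 17299 features. The simulated rats were independent and shared no pool, while rats of a dose-and-time group in the data had a correlation of 0.28. These rates therefore leave out the spread of the pools and are no measure of recovery in the data. The rats are separate animals. Alternatives were scaling, centring, probe median, the filter, a dye term over all arrays, the group as a random block, each group alone, each low dose alone, no fold minimum, each rat left out, and values of exactly 0 as missing, the last chosen after seeing the data.

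The members and gene lists were chosen with earlier results of these data known. Named genes are all called members, the 3 highest and 3 lowest of each complex by the high-minus-low contrast at each time, tissue isoforms and a few defining subunits. Atp5f1a, the likeness search for Atp5if1 and the 50 mg/kg examples were chosen after values were seen.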

Additional observations from a re-analysis of the deposited data

Results flagged for a closer look

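For 9 members the effect of dose, the mean of 1500 and 2000 mg/kg minus that of 50 and 150 mg/kg, differed between times by an interaction contrast in limma with a change of at least 1.5-fold. Between 24 and 6 h the effect was higher at 24 h for Atp5if1 (1.16) and lower for Sdhd (-0.96), Cox8b (-0.70) and Sdha (-0.59), all as log2 differences. Between 48 and 6 h it was higher at 48 h for Atp5if1 (1.45) and lower for Sdhd (-0.90), Sdhb (-0.83), Ndufc1 (-0.72), Ndufv3 (-0.65), Ndufs3 (-0.64) and Ndufa9 (-0.63). The value of Cox8b had an adjusted p of 0.122 in limma with arrays scaled to equal spread and 0.167 with a dye term. The groups at different times have different pools, whose part in these values cannot be told apart from that of time.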

How the results depend on the processing

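Over all alternatives, 282 counts of called members stayed within 1.5 times and 86 moved, and of the log2 values of named members 3640 kept their direction and side of the threshold, 33 were now past it, 75 no longer, and 0 reversed. These counts are of members, and the share of all features under each alternative is not given beside them. Precision is limited by 3 rats a group and 1 pool per dose and time. No paired analysis was possible because rat numbers are not shared between groups. With arrays scaled to equal spread, the called members at 6 h were 1 at 50 mg/kg, 2 at 150, 0 at 1500 and 0 at 2000. At 24 h they were 2 at 150 mg/kg, and at 48 h 1 at 50, 4 at 150, 2 at 1500 and 3 at 2000. Under the same scaling they were 1 for high minus low doses at 6 h and 1 at 48 h, 0 for 2000 minus 1500 mg/kg at each time, 1 between 24 and 6 h within the high doses, and 7, 1 and 11 for the dose effect between 24 and 6, 48 and 24, and 48 and 6 h. With each rat centred there were 5 for high minus low doses at 48 h. Against 150 mg/kg alone there were 4 at 6 h and 5 at 48 h, and against 50 mg/kg alone 3 at 6 h. With a dye term over all arrays, or with exact zeros as missing, 0 remained for 2000 minus 1500 mg/kg at 24 h, and with exact zeros as missing 0 at 50 mg/kg and 24 h. Ndufaf2 then had too few values to be fitted. With each group fitted alone there were 0 at 1500 mg/kg and 6 h, 50 mg/kg and 24 h, and 150 mg/kg and 48 h. With no fold minimum the groups had 4, 25 and 31 called at 6 h (50, 1500 and 2000 mg/kg), 23, 16 and 26 at 24 h (the same doses), and 21, 17, 35 and 34 at 48 h (all doses). High minus low doses then had 39, 15 and 21, 2000 minus 1500 mg/kg 4, 6 and 20, times within the high doses 23 and 18, and the dose effect between times 27, 8 and 26. Leaving out each rat gave 0 to 5, 2 to 2 and 2 to 6 for high minus low doses at 6, 24 and 48 h, 0 to 1, 0 to 1 and 1 to 3 for 2000 minus 1500 mg/kg, 2 to 3 and 0 to 0 between times, and 3 to 9, 0 to 1 and 6 to 10 for the dose effect between 24 and 6, 48 and 24, and 48 and 6 h. For the groups in order of dose it gave 0 to 0, 0 to 0, 0 to 4 and 3 to 3 at 6 h, 0 to 1, 0 to 0, 2 to 4 and 2 to 3 at 24 h, and 0 to 1, 1 to 2, 3 to 7 and 6 to 9 at 48 h.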
